A study of Mus musculus with 4 samples.

Results

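The intermediate filament and lamin genes described here were 10 genes chosen by name: the cytoplasmic filament genes Vim, Des, Nes and Synm, the simple keratin genes Krt8, Krt18 and Krt19, and the nuclear lamin genes Lmna, Lmnb1 and Lmnb2. All 10 had a row among the 25965 genes of the deposited table. The table held 4 libraries of polyadenylated RNA from cultured vascular smooth muscle cells, which contract the wall of arteries. The donors were healthy wild-type C57Bl/6 male mice of 8 to 14 weeks, whose aortic medial cells had been dispersed with collagenase and elastase and passaged 3 to 5 times in DMEM with serum. All 4 libraries formed 1 group, with no untreated tissue or second condition beside it. The labels do not say which passage each library had or whether each came from its own animals, so the spread between libraries may be technical.

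Intermediate filaments are rope-like polymers of coiled-coil proteins that give cells mechanical strength, and the set of filament genes in use is characteristic of a cell's lineage and state. Vimentin forms homopolymers in mesenchymal cells, desmin is the muscle form, nestin and synemin assemble together with vimentin or desmin, and type I keratins (Krt18, Krt19) pair with type II keratins (Krt8) in epithelia. Lamins form the meshwork under the inner nuclear membrane. A-type lamins come from Lmna by alternative splicing, which a table of whole genes cannot separate, and B-type lamins from Lmnb1 and Lmnb2. In arteries, differentiated smooth muscle cells contain desmin and synemin as well as vimentin.

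Levels are log2 scaled reads, the log2 of a gene's reads times a constant of its library, and were not divided by gene length unless stated. Reads on genes, recovered from the table, ranged from 40342561 in library 3 to 56793195 in library 4. A gene counted as detected with a value of at least 0 in 4 of 4 libraries, and 9 of the 10 genes were detected, against 47.4% of all genes. The exception was Krt8. Smooth muscle identity was checked with 6 markers (Myh11, Acta2, Tagln, Cnn1, Smtn and Lmod1), all detected, with summed scaled reads of 7912, 3623, 11532 and 16266 in libraries 1 to 4. Of endothelial markers 3 of 6 were detected, with sums of at most 47.7, and of leukocyte markers 2 of 6, with sums of 59.4, 44.5, 13.5 and 13.1 in libraries 1 to 4, lower in the libraries where Nes was highest. Their part in the results below was not tested. The deposited scaling bears on differences between libraries: dividing by median-ratio size factors would move library 1 by -0.31, library 2 by -0.10, library 3 by 0.29 and library 4 by 0.11 log2 units. Of the detected genes, 53.6% had their highest value in library 1 under the deposited scaling.

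Vim and Lmna were high and steady, and Nes was high and the most divergent. Not divided by length, the mean levels of Lmnb1 and Lmnb2 were above the median of detected genes. Those of Synm and Krt19 were near it, and those of Des and Krt18 below it. With an SD between libraries above 0.5 as the mark of a variable gene, 7 of the 9 detected genes were variable (Des, Nes, Synm, Lmnb1, Lmnb2, Krt18 and Krt19), against 40.5% of all detected genes. The median SD of the 9 genes was 0.71, beside 0.43 over all detected genes, and their median level was 5.64, beside 5.09. Lmnb2 was just inside that mark, with an SD of 0.52, and Lmna was the nearest outside it, with 0.32. After median-ratio scaling the count was again 7, against 30.7% of detected genes, with Lmna (SD 0.55) in place of Lmnb2 (SD 0.38). Counting error was small beside this spread, at most 0.13 log2 units (Krt18 in library 1). Without library 2 the count was 4, because the SDs of Synm, Lmnb1 and Lmnb2 were then 0.32, 0.47 and 0.36.

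**Figure D1:**
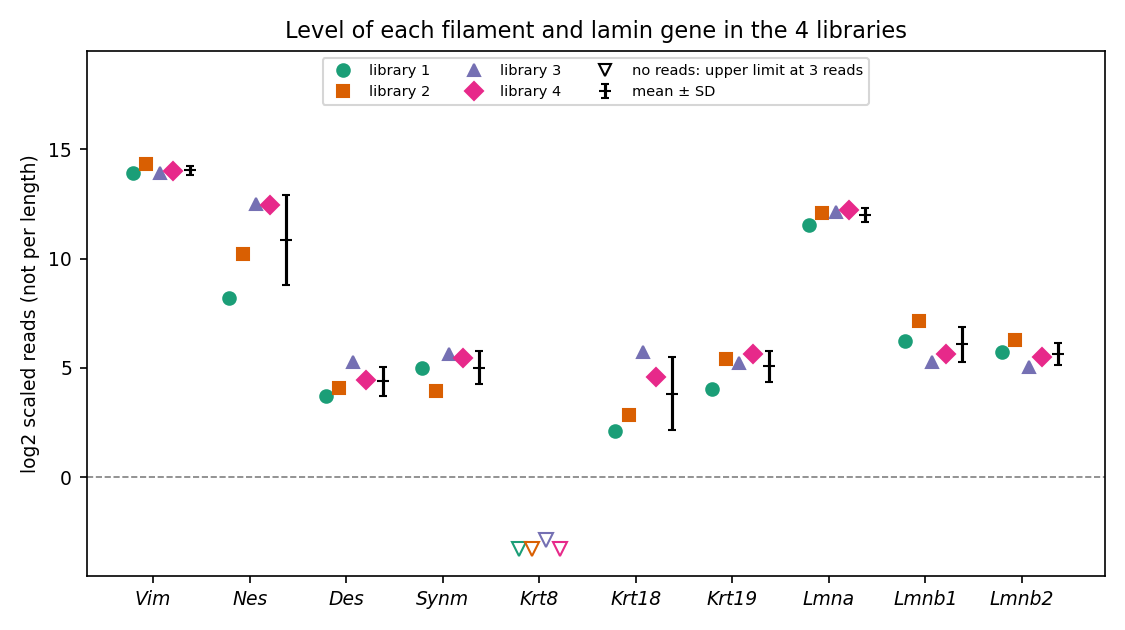
Level of each gene in each library in log2 scaled reads, with the mean and SD over the 4 libraries in black and the detection threshold of 0 dashed. Vim lay near 14 in 4 of 4 libraries, Nes ran from 8.20 to 12.51, and open triangles mark Krt8, which had no reads and is drawn at its upper limit of 3 reads.

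**Figure D2:**
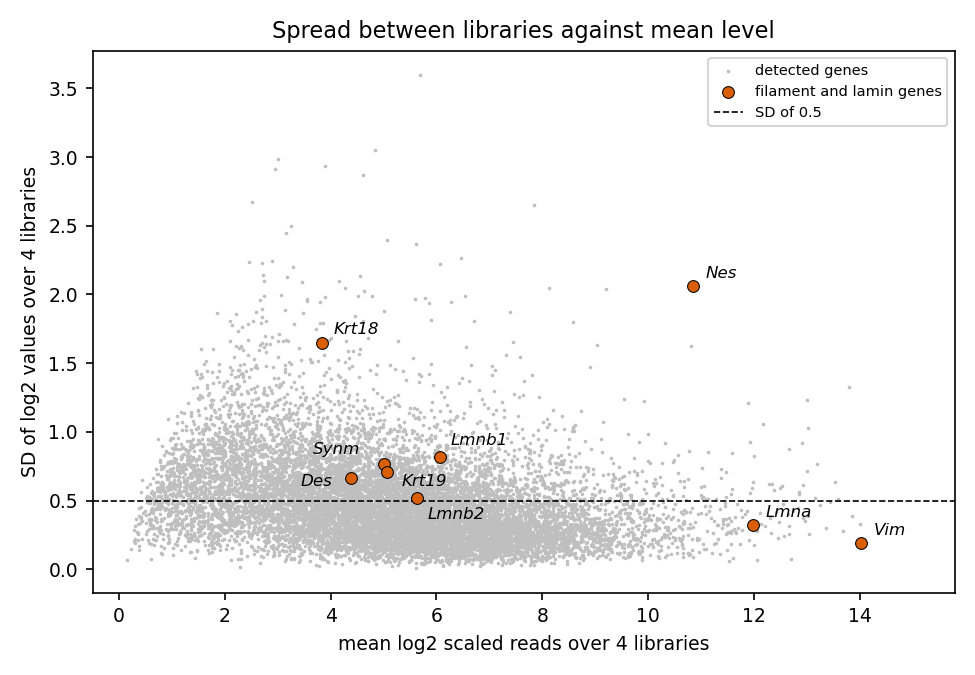
SD over the 4 libraries (vertical) against the mean log2 scaled reads (horizontal) for the 12306 detected genes in grey and the 9 detected filament and lamin genes in orange. Nes and Krt18 lie above an SD of 1, and Vim and Lmna lie under the dashed line at 0.5.

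Promoter sequences of 4 genes are shown because their levels mark the extremes of the set: Vim as the highest and steadiest, Nes as the most divergent, and Krt18 with its partner Krt8, which had reads and none. Each is the 250 bases before the RefSeq start on GRCm38.p6, written 5′ to 3′ on the gene's strand. Capitals mark matches, on either strand, to a TATA motif (TATAAA), a GC box (GGGCGG) or a CCAAT box. An AP-1 motif (TGANTCA) and the CArG box, the site of serum response factor, were also searched, with no match in these windows.
Vim, chr2:13574061-13574310, plus strand: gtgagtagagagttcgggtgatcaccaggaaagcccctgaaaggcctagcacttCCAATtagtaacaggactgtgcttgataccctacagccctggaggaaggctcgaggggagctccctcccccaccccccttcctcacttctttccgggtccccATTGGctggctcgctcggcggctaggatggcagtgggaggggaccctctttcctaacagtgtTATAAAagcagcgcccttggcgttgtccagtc
Nes, chr3:87970843-87971092, plus strand: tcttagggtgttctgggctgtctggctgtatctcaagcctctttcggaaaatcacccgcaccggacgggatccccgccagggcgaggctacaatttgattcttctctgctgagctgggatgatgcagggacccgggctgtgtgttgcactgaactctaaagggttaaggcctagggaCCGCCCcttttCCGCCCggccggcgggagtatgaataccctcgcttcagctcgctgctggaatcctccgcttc
Krt18, chr15:102027966-102028215, plus strand: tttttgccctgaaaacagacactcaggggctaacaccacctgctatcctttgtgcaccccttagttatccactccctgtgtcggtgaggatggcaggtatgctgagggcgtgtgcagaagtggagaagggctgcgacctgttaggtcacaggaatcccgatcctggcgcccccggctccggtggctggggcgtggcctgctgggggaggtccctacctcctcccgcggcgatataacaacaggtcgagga
Krt8, chr15:102004343-102004592, minus strand: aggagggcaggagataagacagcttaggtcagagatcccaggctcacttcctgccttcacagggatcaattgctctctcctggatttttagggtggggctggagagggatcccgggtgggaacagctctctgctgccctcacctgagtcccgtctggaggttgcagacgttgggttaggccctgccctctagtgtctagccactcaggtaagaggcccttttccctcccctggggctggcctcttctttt

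The Vim window held TATAAA starting 32 bases before the start and 2 matches to CCAAT, and the Nes window held 2 matches to GGGCGG and no TATAAA. The Krt18 and Krt8 windows held none of these letters, which says only that they are not in these 250 bases. Over 32851 windows of the same length, 12.4% held TATAAA, 32.7% GGGCGG, 33.9% CCAAT, 6.75% TGANTCA and 1.47% the CArG box. Windows were used for 8 of the 10 genes, with none for Krt19 and Lmnb1. Entries on chromosome 18, where Lmnb1 lies, were left out of the search of member windows. The windows shown held 8 (Vim), 15 (Nes), 12 (Krt18) and 3 (Krt8) CG dinucleotides, beside a median of 6 over all windows. Windows not shown held 10 (Des), 23 (Synm), 1 and 4 (Lmna, 2 starts) and 14 and 5 (Lmnb2, 2 starts). A link of these counts with level was not tested.

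Vim (chromosome 2, 13573927 to 13582826, plus strand, GRCm38) had the highest mean of all genes in the table, 14.03 ± 0.19 (SD, n = 4). Its 4 values were 13.93, 14.31, 13.90 and 13.98, so under the deposited scaling library 2 stood a little above the other three. After median-ratio scaling they were 13.62, 14.21, 14.20 and 14.09 (SD 0.28), with library 1 lowest. As deposited, 12.0% of detected genes had a smaller SD. Without library 2 its SD as deposited was 0.04. No 50-base window of the Vim transcript occurs in another annotated gene, whereas 27.8% of those of Gapdh do. Gapdh had 246 to 422 reads, and the effect of shared sequence on the rank of Vim was not tested.

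Des (chromosome 1, 75360329 to 75368579, plus strand), the muscle filament gene, was detected in every library, with 387, 488, 855 and 634 reads. Its log2 values were 3.73, 4.08, 5.28 and 4.43, a mean of 4.38 ± 0.66. Library 3 was highest and library 1 lowest, and without library 3 the SD was 0.35. Per kilobase of exon, Vim exceeded Des by 9.31 ± 0.75 log2 units, with differences of 9.86, 9.90, 8.28 and 9.21 in libraries 1 to 4, the smallest being 312-fold. Markers of striated muscle, where desmin is abundant, were near 0: none of 8 was detected, their summed scaled reads ranged from 0.899 to 2.03 over the libraries, and Myh6 and Myod1 had no reads in any library. An antisense gene, Gm15179, shares 220 exon bases with Des and had at most 1 read.

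Nes (chromosome 3, 87971078 to 87980451, plus strand), the gene of nestin, a large filament protein known from progenitor cells and from proliferating muscle and vascular cells, spanned the widest range of the set. It had 8521, 34549, 128488 and 164064 reads, or log2 values of 8.20, 10.22, 12.51 and 12.45. Libraries 3 and 4 lay close together at the top, library 2 in between and library 1 at the bottom, 19.9-fold under library 3. Its SD of 2.06 ranked 25 among 12306 detected genes, and among the 135 genes with a mean at least as high as its own, Nes included, it alone had an SD that large. Without library 1 its SD was 1.30. Median-ratio scaling kept this order of the libraries and widened the SD to 2.31.

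Schwann cells and glial progenitors can also use nestin, and 1 of 5 of their markers was detected. That gene was S100b, with values of 6.59, 6.68, 8.74 and 7.96, while the defining glial genes Sox10 and Foxd3 lay below the detection threshold in 4 of 4 libraries. Summed scaled reads of the 5 markers were 99.3, 104, 430 and 250 in libraries 1 to 4, nearly all from S100b. Their part in the level of Nes was not tested. In bulk RNA, fewer cells of a type and less RNA per cell cannot be told apart, here and below.

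Synm (chromosome 7, 67730161 to 67759742, minus strand), which encodes synemin, a linker of desmin and vimentin filaments to the membrane skeleton, had 938, 440, 1101 and 1278 reads. Its log2 values of 5.01, 3.93, 5.65 and 5.44 (mean 5.01 ± 0.77) put library 2 at the bottom and libraries 3 and 4 at the top. The 6 smooth muscle markers had library 2 lowest and library 4 highest in 6 of 6, as in Myh11 (7.12, 5.33, 8.08 and 9.24). Synm had library 3 highest, and the share of all detected genes with the order of these markers was not computed. Per kilobase, Nes exceeded Synm by 3.49, 6.60, 7.17 and 7.31 log2 units in libraries 1 to 4. The exons of Synm overlap 84 bases of Ttc23 on the opposite strand, a gene with 447 to 1298 reads, and the strand setting of the counting is not given in the sources used here.

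Among the cytoplasmic genes, Vim held most of the length-scaled signal and Nes most of the remainder. Vim took 98.1%, 95.1%, 76.6% and 78.7% of the summed reads per exon kilobase of the 7 cytoplasmic genes in libraries 1 to 4, and Nes 1.36%, 4.13%, 21.6% and 20.1%. Des, Synm, Krt18 and Krt19 each took under 1 percent in every library. The ratio of Vim to Nes per kilobase thus went from 72.0 in library 1 and 23.0 in library 2 to 3.55 in library 3 and 3.92 in library 4. These shares do not depend on the scaling between libraries.

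**Figure D3:**
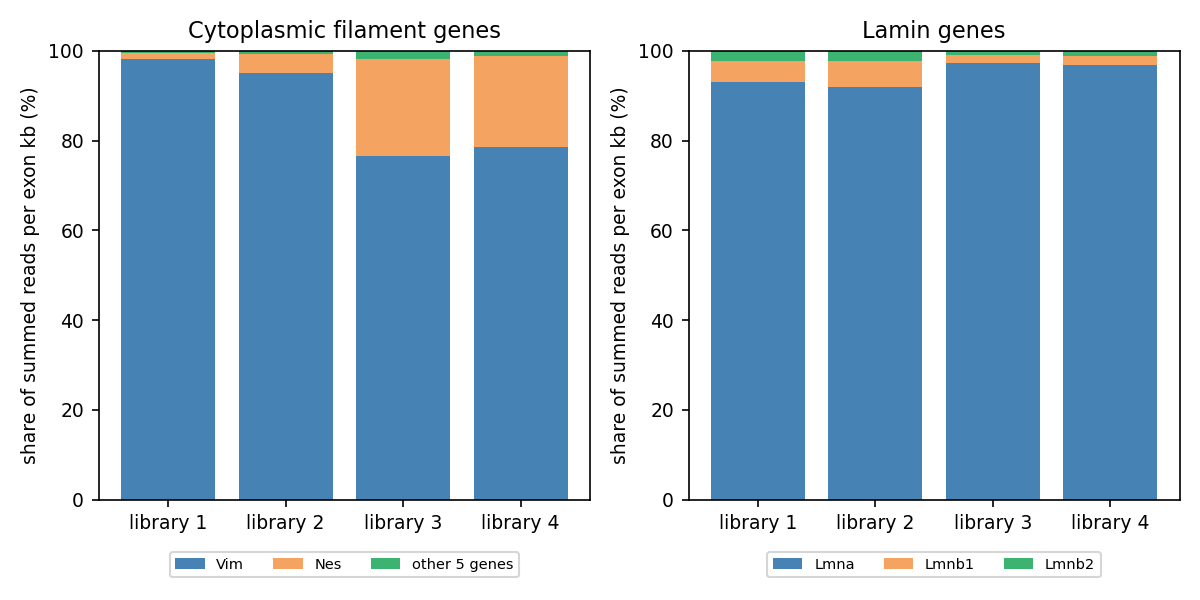
Stacked shares, in percent, of the summed reads per exon kilobase of the 7 cytoplasmic filament genes (left) and the 3 lamin genes (right) in each library. Nes occupies 1.36% of the cytoplasmic bar in library 1 and 21.6% in library 3, and Lmna exceeds 91% of the lamin bar in 4 of 4 libraries.

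The keratin genes were split. Krt18 (chromosome 15, 102028216 to 102032026, plus strand), a type I keratin gene of simple epithelia, had 125, 210, 1177 and 713 reads and log2 values of 2.10, 2.86, 5.74 and 4.60 (mean 3.83 ± 1.65). Its order of libraries, 3 above 4 above 2 above 1, was that of Nes and Des, and 4.44% of detected genes had it. The range was 12.4-fold. Krt18 and Nes were the closest to each other among pairs with either of them, at a root mean square difference of 0.66 log2 units between values centred on each gene's mean over the 4 libraries.

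Krt8 (chromosome 15, 101996711 to 102004342, minus strand), the type II partner of Krt18, was listed with 0 reads in 4 of 4 libraries. At this depth each 0 is compatible with up to 3 reads. It lies 23.9 kb from Krt18 on the same chromosome. Taken at that limit and per kilobase of exon, it was at least 56.8-fold, 95.4-fold, 535-fold and 324-fold lower than Krt18 in libraries 1 to 4. Of the 50-base windows of its transcript, 29.7% also occur in another annotated gene, the pseudogene Krt8-ps or the opposite-strand gene Gm36026, and 1342 windows occur in no other. For comparison, Gapdh, a glycolytic gene used by nearly all cells, shares 27.8% of its windows with 218 other genes and had 246 to 422 reads. Krt18 shared 0.72% of its windows. How reads matching several places were treated is not given in the sources used here, and its part in the value of Krt8 was not tested.

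Krt19 (chromosome 11, 100140810 to 100148665, minus strand), which encodes the smallest type I keratin protein and is also used as a mesothelial marker, had 473, 1209, 834 and 1438 reads. Its log2 values were 4.02, 5.39, 5.24 and 5.61 (mean 5.07 ± 0.71), with library 1 apart from the others, and without library 1 its SD was 0.19. Per kilobase Krt19 was above Krt18 in libraries 1, 2 and 4 (by 1.55, 2.16 and 0.64 log2 units) and below it in library 3 (-0.87).

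Markers of the keratin-rich cell types were mostly low, but not the mesothelial genes Upk1b and Upk3b. Their means were 5.96 and 4.96, beside 3.83 for Krt18 and 5.07 for Krt19. Of 6 mesothelial markers 3 were detected (Upk1b, Upk3b and Msln), with summed scaled reads of 130, 78.2, 186 and 53.1 in libraries 1 to 4. Upk1b, the highest of them, had values of 6.18, 5.81, 7.11 and 4.76, highest in library 3 like Krt18, whereas Lrrn4 and Bnc1 had no reads in libraries 3 and 4. Of 6 epithelial markers only Cldn3 was detected, the summed scaled reads were 4.23, 8.48, 9.46 and 13.5, and Cldn4 and Esrp1 had no reads in any library. The part of such cells in the keratin levels was not tested.

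Lmna (chromosome 3, 88481148 to 88509956, minus strand), the A-type lamin gene, was among the highest genes of the table, at rank 51. Its values of 11.52, 12.10, 12.13 and 12.23 (mean 11.99 ± 0.32) put library 1 lowest and the other three close together, and without library 1 its SD was 0.07. Per kilobase, Vim exceeded Lmna by 2.34 ± 0.33 log2 units, a difference that was positive in 4 of 4 libraries.

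Lmnb1 (chromosome 18, 56707813 to 56753424, plus strand), a farnesylated B-type lamin gene whose loss is widely used as a sign of senescence, had 2164, 4105, 859 and 1462 reads. Its log2 values were 6.22, 7.15, 5.29 and 5.64 (mean 6.07 ± 0.81), with library 2 highest, then 1, 4 and 3. Lmnb2 (chromosome 10, 80901203 to 80918245, minus strand), the other B-type gene, had the same order with a narrower range: 5.74, 6.28, 5.03 and 5.49 (mean 5.64 ± 0.52). Of detected genes 9.91% had this order. Under median-ratio scaling Lmnb1 kept it, while Lmnb2 put library 4 above library 1. Lmnb1 and Lmnb2 had a root mean square difference of 0.28 log2 units, as did Vim and Lmna. These were the smallest of all pairs of detected members. The measure is small for any 2 genes with little spread. Vim and Lmna had SDs of 0.19 and 0.32, and their orders of libraries differed.

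Proliferation genes shared the order of the B-type lamins. All 6 listed (Mki67, Top2a, Ccnb1, Mcm6, Pcna and Bub1) had library 2 highest, then 1, 4 and 3, and their summed scaled reads were 574, 980, 306 and 393 in libraries 1 to 4. After median-ratio scaling library 2 was still highest for the 6 genes, and Mcm6 and Pcna changed the order of the others. Their part in the levels of Lmnb1 and Lmnb2 was not tested. Of 6 kinases that phosphorylate filaments, all were detected and 4 were variable, beside 40.5% of all detected genes: the mitotic Cdk1, Aurkb and Plk1 and the contractility kinase gene Rock1. The mitotic genes had the order of Lmnb1, with Cdk1 at 5.49, 5.83, 3.51 and 4.11.

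Per kilobase, Lmna exceeded Lmnb1 by 4.94 ± 0.94 log2 units, with fold differences of 20.0, 15.6, 58.2 and 48.8 in libraries 1 to 4. Lmnb1 exceeded Lmnb2 by 0.97 ± 0.32. Lmna took 93.0%, 91.9%, 97.4% and 96.8% of the length-scaled lamin signal. The ratio of Lmna to the 2 B-type genes together was 13.4, 11.4, 36.9 and 30.0, so libraries 3 and 4 had the higher ratios under any scaling between libraries.

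**Figure D4:**
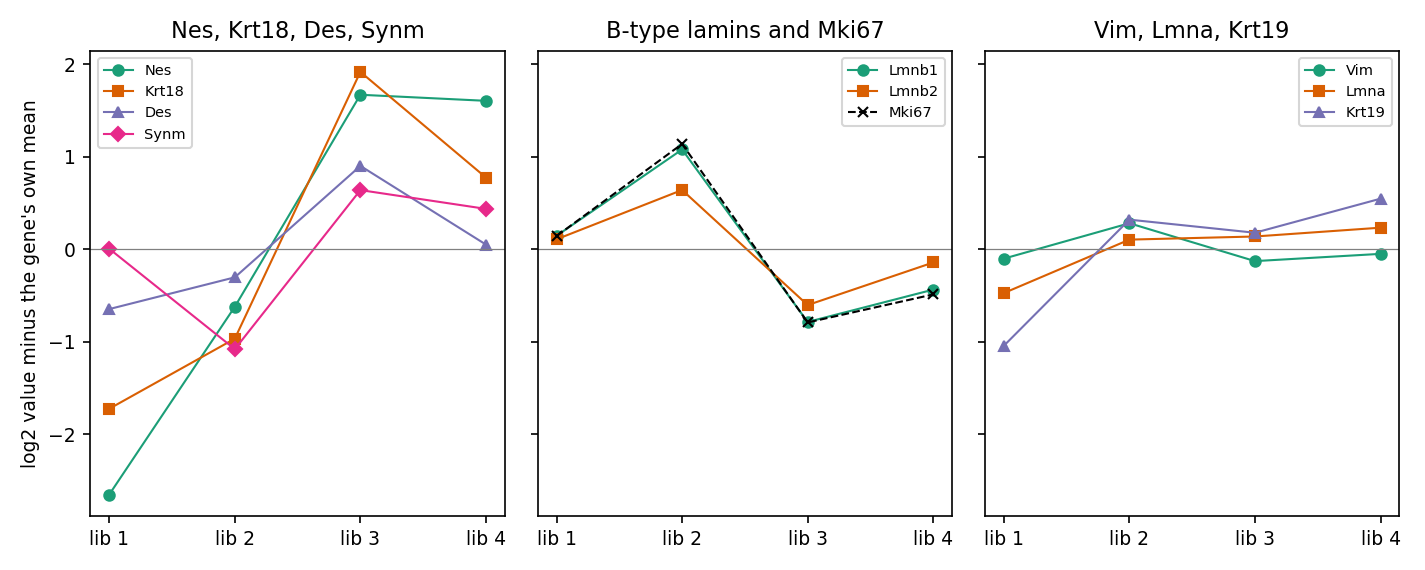
Log2 values of each gene minus its own mean, by library (lines join values of a gene, and libraries have no order). Nes, Krt18, Des and Synm are highest in library 3 (left), Lmnb1 and Lmnb2 are highest in library 2 together with Mki67 (middle), and Vim and Lmna stay within 0.5 of their means (right).

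Genes with the most similar pattern were sought for each variable member among 4430 variable named genes, by the root mean square difference of centred log2 values over 4 libraries. The nearest to Lmnb1 were Mki67 (0.040), the proliferation marker, Tyms (0.049), an enzyme of thymidylate synthesis, and D17H6S56E-5 (0.050). Synm was nearest to Dnm3os (0.019), Lox (0.036), the collagen and elastin crosslinking enzyme, and Ap3m1 (0.056). Those of Nes were farther away: Fibcd1 (0.36), Nptx1 (0.47) and the sphingosine phosphate receptor gene S1pr3 (0.47). Krt18 was nearest to Mall (0.16), Cox4i2 (0.36) and Sema4f (0.39). For Des they were Cnih2 (0.040), Chi3l1 (0.080) and Osgin1 (0.090), for Lmnb2 Sephs2 (0.008), Eno3 (0.019) and Gpr126 (0.045), and for Krt19 the cell cycle inhibitor gene Cdkn1c (0.13), Btc (0.13) and Crabp2 (0.14). With 4 libraries such closeness is a description of these values.

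Partner genes of the filaments were mostly detected. Other intermediate filament genes were the exception, with 4 of 16 detected: Sync (5.21 ± 0.39), encoding the desmin-associated protein syncoilin, Bfsp1 (2.08 ± 0.47), Krt80 (1.79 ± 0.52) and Krt10 (0.76 ± 0.49). Krt14, an epidermal keratin gene, was without reads throughout, and the neurofilament genes Nefl, Nefm and Nefh and the glial Gfap were not detected. All 7 measured cytolinkers were detected, led by Plec (11.04 ± 0.18), encoding plectin, which ties filaments to junctions and to the nucleus, and by Dst (8.48 ± 0.71), Macf1 (7.62 ± 1.02) and Ppl (6.61 ± 0.32). Of the 7 cytolinkers 3 were variable (Dst, Macf1 and Dsp), a share near the 40.5% of all detected genes. The small heat shock genes Cryab (9.12 ± 0.35) and Hspb1 (8.17 ± 0.24), whose products bind desmin and vimentin, were detected and not variable.

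On the nuclear side, all 5 enzymes that process the lamin tail were detected, beside 47.4% of all genes, and none was variable, beside 40.5% of detected genes. They included Zmpste24 (7.09 ± 0.37), the protease that matures prelamin A, Icmt (7.03 ± 0.32), which methylates the farnesylated end, and the farnesyltransferase subunit gene Fnta (6.70 ± 0.18). All 11 measured nuclear envelope partners were detected and 4 were variable (Sun2, Sun1, Syne2 and Ankle2), again a share near the 40.5% of all detected genes. Sun2, a gene of the bridge between lamina and cytoskeleton, was the highest (9.51 ± 0.67) with values of 8.93, 8.95, 9.92 and 10.24. Its paralog Sun1 was lower, at 6.71, 6.13, 5.27 and 6.16. Lemd2 (7.59 ± 0.08) and Banf1 (7.53 ± 0.34), which link chromatin to the lamina, followed Sun2.

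Within libraries, 8 differences between genes were tested per kilobase of exon. Of these 7 had 1 sign in 4 of 4 libraries, with p = 0.13 by exact permutation of the signs over libraries (two-sided, 16 arrangements) and an adjusted p of 0.143 over 8 differences (Benjamini-Hochberg). That is the smallest p these libraries can give, so none could pass 0.05. The exception was Krt19 minus Krt18, 0.87 ± 1.31 log2 units (exact permutation p = 0.375, adjusted p = 0.375).

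**Figure D5:**
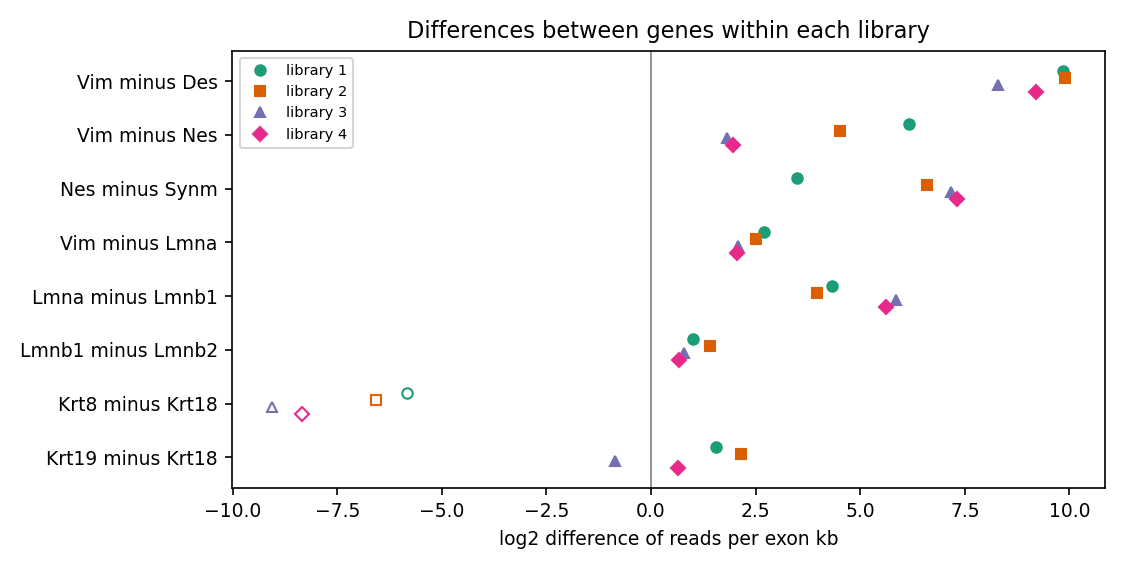
Log2 difference of reads per exon kilobase between 2 genes, 1 point per library. Open symbols are bounds with Krt8 at 3 reads, Vim minus Nes ranges from 1.83 to 6.17, and Krt19 minus Krt18 is the difference with points on both sides of 0.

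In order of mean level per exon kilobase, the detected genes were Vim (11.79), Lmna (9.45), Nes (8.16), Lmnb1 (4.51), Krt19 (4.18), Lmnb2 (3.54), Krt18 (3.30), Des (2.47) and Synm (2.02), in log2 units. Neighbours in this order often overlapped. Lmna was above Nes in libraries 1 and 2 and below it in libraries 3 and 4. In libraries 3 and 4 the differences were small, at -0.25 and -0.09 log2 units. Lmnb1 exceeded Krt19 in libraries 1 and 2, Krt19 exceeded Lmnb2 in 3 of 4, Lmnb2 exceeded Krt18 in 2 of 4 and Des exceeded Synm in 3 of 4. Vim above Lmna, and Nes above Lmnb1, held in 4 of 4 libraries. This order used the union of exons, and Des against Synm was not tested with other lengths. With the longest transcripts, Vim exceeded Lmna by a mean of 2.47 and Nes by 4.25 log2 units, beside 2.34 and 3.62 here. Those lengths put Lmna above Nes in libraries 3 and 4 too. For Lmna the longest transcript was 3948 bases and the union of exons 5838, and for Nes they were 6126 and 6416.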

How the data were processed

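The authors deposited 1 table of log2 values per gene, 1 column per library. Trim Galore, cutadapt, TopHat and the build GRCm38 appear, without versions, in the submitters' processing notes. The counting tool, annotation and treatment of strand and of multiply matching reads are not given in the sources used. From the values, they are whole numbers of reads times a library constant, with genes without reads at 0.9 read. All values under 2000 reads lay within 0.05 of a whole read, as did 99.7% to 99.8% of all values above 0 reads. Reads on genes were 56265771, 55521915, 40342561 and 56793195. Counting errors and the limit of 3 reads for a count of 0 cover counting error only, since these reads carried no molecular identifiers and may be copies.

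Members, lists and tests were chosen with earlier results of these data known. Named genes were the 10 members, at most the 4 highest and the unread genes of each list, and the 3 genes nearest in pattern to each variable member. Others, including variable genes of a list, were named after their values were seen. Lengths (union of exons) and shared 50-base windows came from GENCODE M21 on GRCm38, promoters from RefSeq on GRCm38.p6. Syne3 and Eppk1 were not found under those symbols. 1 listed marker gene is not reported here. Alternatives were median-ratio scaling, other thresholds, other lengths and leaving out each library, and division by unshared windows was added after the data were seen. Tools were numpy 2.4.6, pandas 2.3.3 and Python 3.11.15, with figures by matplotlib 3.10.9.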

Additional observations from a re-analysis of the deposited data

How the results depend on the processing

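The count of 9 detected genes did not change without any 1 library (9 to 9). Requiring an SD above 1 left 2 of the 9 detected members variable, Nes and Krt18, beside 5.80% of all detected genes. Leaving out each library in turn gave 4 to 7 variable members, and 27.2% to 46.0% of detected genes. Without library 1 Krt19 was no longer variable, without library 2 Synm, Lmnb1 and Lmnb2 were not, and without library 3 Des and Lmnb2 were not. All 8 differences between genes kept their sign of the mean under each length and without each library. Their exact permutation p could not pass 0.05 in any of these. No paired analysis was possible because there is 1 group. Depth limited Krt8, where 3 reads are the limit.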

Other observations

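The table held 46 numbered keratin genes, members included, of which 6 were detected and 17 lacked reads throughout. Over all genes 47.4% were detected, and 7441 of 25965 lacked reads in every library. Besides Krt18, Krt19, Krt10 and Krt80 the detected keratin genes were Krt13 and Krt15, type I keratin genes of stratified epithelia, named after their values were seen. Krt13 had log2 values of 0.81, 2.20, 3.13 and 3.22 in libraries 1 to 4, and Krt15 0.23, 1.41, 2.87 and 2.45. Both were lowest in library 1, as were Nes, Krt18, Krt19, Des and Lmna. Krt10 and Krt80 did not share this: Krt10 was highest in library 1, and Krt80 was lowest in library 3. Of the other detected members, Synm was lowest in library 2, and Vim, Lmnb1 and Lmnb2 were lowest in library 3. The share of all detected genes that were lowest in library 1 was not computed.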
